A study of Mus musculus with 12 samples.

Results

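The genes described here are those of the mitochondrial genome, taken as all genes that the deposited count table places on chromosome MT: 13 of 27105 genes. All 13 are protein-coding, 12 on the plus strand and 1, mt-Nd6, on the minus strand. Ribosomal and transfer RNA genes of the mitochondrial genome were not analysed here. The RNA came from mouse livers on a control diet (6 libraries) or a ketogenic diet (6 libraries), the latter a diet whose energy comes mostly from fat. All samples are labelled as liver, extracted as total RNA with a column kit. The labels give no strain, sex, age, diet composition or length of feeding. Libraries are named by diet and replicate number (control 1, ketogenic 4), and the design text describes replicates as biological without saying more about the animals.

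Mitochondrial DNA is a small circle that codes for core membrane subunits of respiratory complexes I, III and IV and of ATP synthase, while the other subunits of these complexes come from nuclear genes. Both strands are transcribed as long precursors, and transfer RNAs that lie between most of the genes are cut out to release the mRNAs. Genes on one strand thus share a precursor, and the levels of the mature mRNAs also depend on how long each one lasts. Liver cells are rich in mitochondria, where fatty acids are oxidised and ketone bodies are made.

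On the ketogenic diet the mitochondrial mRNA pool had a different makeup, while its share of all counts did not pass the test. mt-Nd2, which codes for a proton-pumping subunit of complex I, went from 11.4 ± 0.700% to 15.7 ± 0.444% of the mitochondrial counts (mean ± SD, n = 6 per diet). mt-Cytb, which codes for cytochrome b, the mitochondrially encoded subunit of complex III, went from 16.7 ± 1.09% to 13.04 ± 1.04%. For both genes the ranges of the diets did not overlap. Relative to all genes, mt-Cytb fell by 0.59 on the log2 scale and was the single member of the 13 called by edgeR, with an adjusted p of 0.0441. This call was lost in 9 of the 12 fits with 1 library left out.

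Some of these genes have near-identical copies in the nuclear genome, and the sequences bear on how far each count can be read. In the GENCODE M21 annotation of GRCm38, all 13 genes have the same start, end and strand as in the count table, whose own build the sources used here do not name. A stretch of mt-Co2, which codes for the cytochrome oxidase subunit that takes electrons from cytochrome c, is shown beside the same stretch of its pseudogene Gm28661 as an example of an identical copy. Stretches of mt-Cytb and mt-Nd2, the genes whose shares differed most, are shown beside pseudogenes that have diverged from them. Capitals mark the mismatched bases.

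mt-Co2, chrM:7013-7072, plus strand: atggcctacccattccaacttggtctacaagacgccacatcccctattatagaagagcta

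Gm28661, chr1:24615506-24615565, minus strand: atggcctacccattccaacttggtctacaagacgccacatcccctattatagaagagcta

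mt-Cytb, chrM:14445-14504, plus strand: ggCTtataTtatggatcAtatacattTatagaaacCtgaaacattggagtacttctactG

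Gm11410, chr4:80004289-80004348, plus strand: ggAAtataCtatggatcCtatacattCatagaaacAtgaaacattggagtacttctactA

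mt-Nd2, chrM:4614-4673, plus strand: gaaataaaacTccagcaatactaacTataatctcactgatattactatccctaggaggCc

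Gm13339, chr2:22590302-22590361, minus strand: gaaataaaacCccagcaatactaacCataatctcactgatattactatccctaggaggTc

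The mt-Co2 stretch had 0 mismatches in 60 bases, that of mt-Cytb 7 and that of mt-Nd2 3. Over the aligned length, mt-Co2 was 100% identical to Gm28661 over 681 bases. Likewise mt-Atp6 was 100% identical to Gm10925 over 678 bases, mt-Co3 to Gm28437 over 783 bases and mt-Nd4l to Gm10222 over 294 bases. mt-Nd3 differed from Gm28438 by 1 mismatch in 345 bases. Of mt-Nd4, the first 876 of its 1378 bases were identical to Gm28439, and the last 483 of the 1545 bases of mt-Co1 had 1 mismatch to Gm29216. These 7 pseudogenes lie side by side on chromosome 1 between positions 24611535 and 24616197, in the order of the mitochondrial genes. mt-Atp8 has no annotated copy of its own there but lies between mt-Co2 and mt-Atp6, whose copies Gm28661 and Gm10925 are spaced as in the mitochondrial genome. mt-Cytb was 92.9% identical to Gm11410 over 1142 bases and mt-Nd2 96.7% identical to Gm13339 over 510 of its 1038 bases. These alignments had 81 and 17 mismatches, fewer per base than the stretches shown. The longest exact match found to any other annotated transcript was 47 bases for mt-Cytb and 129 bases for mt-Nd2. mt-Nd1 had no copy over 84.0% identity and mt-Nd6 was 93.6% identical to Gm11408.

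Other features of the gene sequences also bear on the counts. mt-Atp8 and mt-Atp6, the genes of a small and of the proton-channel subunit of ATP synthase, overlap by 43 bases on the same strand. That overlap is printed here because a read in it fits both genes. Capitals mark the first codon of mt-Atp6 and the stop codon of mt-Atp8.

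mt-Atp8 and mt-Atp6, chrM:7927-7969, plus strand: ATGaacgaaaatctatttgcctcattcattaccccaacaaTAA

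mt-Nd5 and mt-Nd6 overlap by 14 bases on opposite strands, mt-Nd4l and mt-Nd4 by 7 and mt-Atp6 and mt-Co3 by 1 on the same strand. No source used here gives the strand setting of the counting, so reads from mt-Nd6 and from RNA of the other strand over it cannot be told apart. In mt-Co3, mt-Nd4 and mt-Cytb the length leaves a remainder of 1 base after whole codons, and the gene ends on a lone T of the stop codon. In such genes the poly(A) tail is known to complete the stop. The last 30 bases of the 2 genes that the results turn on show the difference, with the bases of the stop codon in capitals.

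mt-Nd2 end, chrM:4922-4951, plus strand: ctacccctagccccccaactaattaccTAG

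mt-Cytb end, chrM:15259-15288, plus strand: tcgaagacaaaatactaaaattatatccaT

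Library totals ran from 30176579 to 33538911 counts, of which the 13 genes took 830415 to 1357755. Hepatocyte markers (8 of 8 detected, with albumin among them) summed to 84703 to 123041 CPM on the control and 83667 to 106971 CPM on the ketogenic diet, where CPM is the usual depth-scaled count on TMM-adjusted library sizes. The summed markers of endothelium, macrophages, stellate cells, bile duct, white cells and red cells also overlapped between the diets, and their part in the results was not tested. In such bulk samples, fewer cells of a type and less RNA per cell cannot be told apart. Ketogenic 4 stood apart from its group, with a median correlation of 0.951 to the other ketogenic libraries against 0.978 to 0.984 among those. Several results changed without it, among them the direction of the nuclear respiratory subunits. Where such a change is described, both values are given. The edgeR call of mt-Cytb was also lost without it, but was kept in only 3 of the 12 fits with 1 library left out.

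Levels differed widely among the 13 genes, of which the 12 on the plus strand share a precursor and mt-Nd6 does not. Per length, mt-Co1, the catalytic subunit of cytochrome oxidase, was the highest in all 12 libraries, at 10579 ± 1146 CPM per kilobase on the control diet (mean ± SD, n = 6). mt-Cytb followed at 5508 ± 936, mt-Nd1, a complex I subunit near the quinone site, at 4908 ± 547 and mt-Nd2 at 4156 ± 721 CPM per kilobase. The next group held mt-Nd4 (1880 ± 371), mt-Nd6 (1333 ± 185) and mt-Nd5 (1239 ± 264), all membrane subunits of complex I. Below these came mt-Co2 at 212 ± 66.6, mt-Atp6 at 184 ± 70.1, mt-Co3 at 142 ± 33.3, mt-Nd3 at 97.4 ± 17.5, mt-Nd4l at 59.3 ± 18.3 and mt-Atp8 at 4.60 ± 1.73 CPM per kilobase.

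The 6 lowest genes are mt-Atp8 and the 5 whose length lies almost wholly in exact matches of at least 100 bases to other annotated transcripts (98.3% to 99.9% of their bases). Together these 6 genes held 1.16 ± 0.187% of the mitochondrial counts on the control and 1.17 ± 0.273% on the ketogenic diet. No source used here says how reads that fit several places were counted, and the part of the copies in these low levels was not tested. The deposited counts hold no entry for any pseudogene named above, so counts of the copies could not be looked up. The values of mt-Co2, mt-Atp8, mt-Atp6, mt-Co3, mt-Nd3 and mt-Nd4l are uncertain to that extent, as are in part those of mt-Nd4 (63.6% of its bases in such matches) and mt-Co1 (48.1%). mt-Nd2 had 12.4% of its bases in such matches, and mt-Nd1, mt-Nd5, mt-Nd6 and mt-Cytb had 0%. In exact matches of at least 50 bases, mt-Co1 had 74.9% of its bases, mt-Nd5 24.3% and mt-Nd2 17.2%. mt-Nd1, mt-Nd6 and mt-Cytb had 0% there too.

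**Figure D1:**
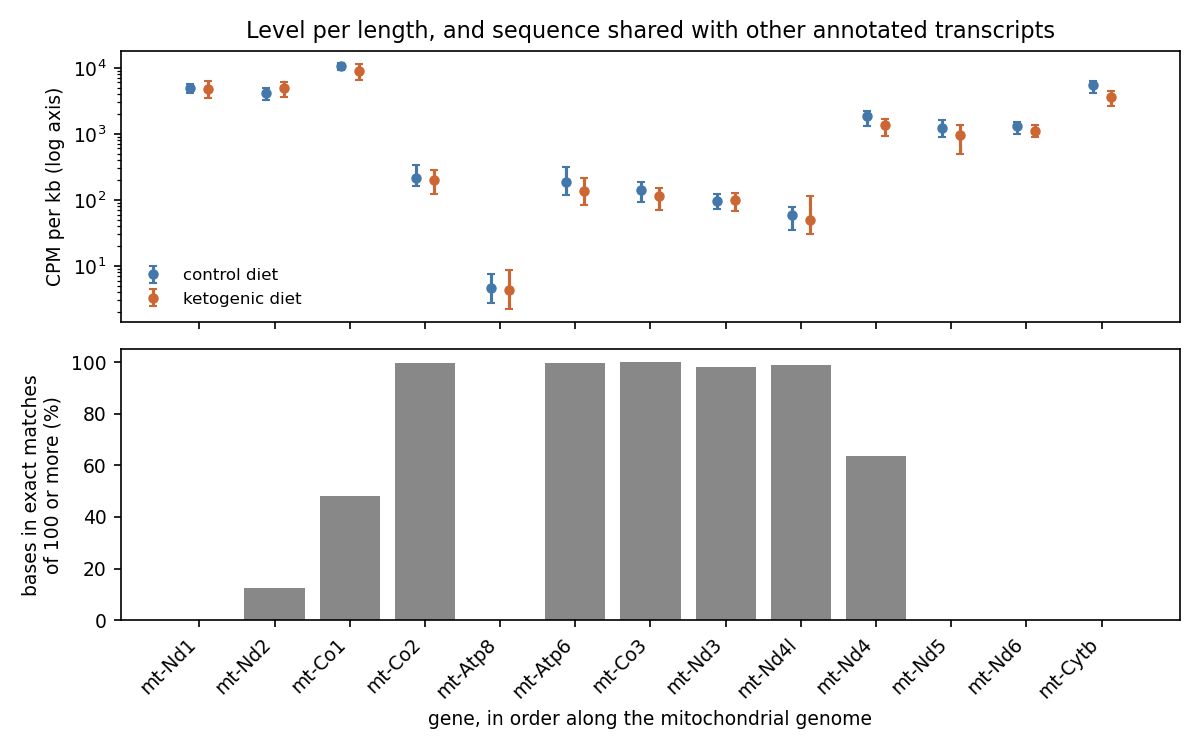
The upper panel plots CPM per kilobase on a log axis for the 13 genes in genome order, with points for the mean of 6 libraries per diet and bars from the lowest to the highest library. The lower panel gives the percent of each gene's bases in exact matches of 100 or more bases to other annotated transcripts, and the 5 genes near 100% lie below all genes at under 64% except mt-Atp8.

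Neighbours in the order of levels could not all be separated. On the control diet mt-Nd1 lay above mt-Nd2 in 6 of 6 libraries and mt-Cytb above mt-Nd1 in 4 of 6, while mt-Nd6 lay above mt-Nd5 in 4 of 6. On the ketogenic diet mt-Cytb lay above mt-Nd1 in 0 of 6 libraries and mt-Nd1 above mt-Nd2 in 2 of 6. Per kilobase, the ketogenic means were 4880 ± 1008 for mt-Nd2, 4863 ± 1000 for mt-Nd1 and 3654 ± 637 for mt-Cytb.

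The comparison of diets asks how a ketogenic diet changes gene expression in the liver. As a share of all counts, the 13 genes ran from 3.09% to 4.22% (median 3.71%) on the control and from 2.53% to 4.13% (median 3.31%) on the ketogenic diet. The ranges overlapped, and a two-sided exact permutation test over all splits into 6 and 6 libraries gave p = 0.266. By strand, the 12 plus-strand genes held 3.60 ± 0.422% of all counts against 3.24 ± 0.619% (exact p = 0.266). mt-Nd6 on the minus strand held 0.0672 ± 0.00782% against 0.0585 ± 0.00703% (exact p = 0.0758). The lowest p of these 3 was 0.227 after Benjamini-Hochberg adjustment.

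Gene by gene, the diets were compared with edgeR's quasi-likelihood test over all 13995 genes that passed a filter on low counts, and all 13 members passed it. At a Benjamini-Hochberg adjusted p under 0.05, 1 member fell and 0 rose, where 1.44% of all genes fell, 2.34% rose and 3.78% changed in either direction. At an unadjusted p under 0.05 there were 3 members (mt-Cytb, mt-Nd4 and mt-Nd6), beside 16.7% of all genes. Fold changes were below 0 in 11 of the 13 members and in 50.1% of all genes, with a median log2 fold change of -0.25 in the members and 0.00 in all genes. The 13 genes come from the same molecules, so that this direction is not 13 separate observations. With library size as the scale, the medians were -0.18 and 0.07. In none of the 13 were the CPM ranges of the diets apart, as they were in 3.54% of all genes (2.17% higher and 1.37% lower on the ketogenic diet).

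mt-Cytb ran from 4703 to 7314 CPM (median 6705) on the control and from 3059 to 5106 CPM (median 4300) on the ketogenic diet. Of the ketogenic libraries, 5 lay below all control libraries, and ketogenic 5 lay above control 5 alone. The log2 fold change was -0.59 ± 0.15 (SE), with an adjusted p of 0.0441 in edgeR. Over the 12 fits with 1 library left out, the log2 fold change ran from -0.66 to -0.52 and the adjusted p from 0.0274 to 0.116. The call was kept without control 5, control 6 or ketogenic 5 and was lost without any other library, with an adjusted p of 0.0543 without ketogenic 4. In edgeR it was also lost with library size as the scale (adjusted p = 0.0574) and with no filter on low counts (adjusted p = 0.0566). The same held with the replicate number as a block (adjusted p = 0.167). DESeq2 (adjusted p = 0.00373) and limma-voom (adjusted p = 0.0466) kept the call. So did edgeR with RLE factors (adjusted p = 0.0449) and with a filter of at least 1 CPM in 6 libraries (0.0446). Library sizes without the mitochondrial genes also kept it in edgeR (0.0442).

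Among the complex I genes, mt-Nd2 went the other way. It ran from 3382 to 5222 CPM (median 4079) on the control and from 3793 to 6434 CPM (median 4788) on the ketogenic diet. The ranges overlapped, with ketogenic 5 and ketogenic 6 above all control libraries, and the log2 fold change was 0.23 ± 0.16 (edgeR adjusted p = 0.525). mt-Nd1 ran from 4049 to 5472 CPM (median 4622) against 3343 to 6055 CPM (median 4607), a log2 fold change of -0.01 ± 0.14 (edgeR adjusted p = 0.979). Its ketogenic libraries lay on either side of the control range.

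mt-Nd4 and mt-Nd5 code for antiporter-like subunits of the proton-pumping arm of complex I. mt-Nd4 ran from 1835 to 3106 CPM (median 2708) on the control and from 1289 to 2301 CPM (median 1882) on the ketogenic diet. All 6 ketogenic libraries lay below the control mean and 3 of them below all control libraries. Its log2 fold change was -0.46 ± 0.17 and did not pass the threshold (edgeR adjusted p = 0.164). mt-Nd5 ran from 1655 to 2977 CPM against 907 to 2477 CPM, a log2 fold change of -0.36 ± 0.21 (edgeR adjusted p = 0.434), with its lowest value in ketogenic 4. Without that library it was -0.23.

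mt-Nd6, the minus-strand gene, ran from 521 to 784 CPM (median 719) on the control and from 471 to 697 CPM (median 561) on the ketogenic diet. The ranges overlapped, with 1 ketogenic library below all controls, and the log2 fold change was -0.27 ± 0.13 (edgeR adjusted p = 0.287). mt-Nd3 and mt-Nd4l are small subunits of complex I with nuclear copies. mt-Nd3 ran from 25.5 to 43.0 CPM on the control and from 23.3 to 44.1 CPM on the ketogenic diet, and mt-Nd4l from 10.4 to 23.3 CPM and from 9.01 to 34.3 CPM. Both overlapped, with log2 fold changes of 0.01 ± 0.16 and -0.25 ± 0.33 (edgeR adjusted p = 0.984 and 0.795). For mt-Nd4l, 3 ketogenic libraries lay below all controls and 1, ketogenic 6, above them. Without ketogenic 6 the log2 fold change of mt-Nd4l was -0.68. The sign of mt-Nd1 changed with library size as the scale, and that of mt-Nd3 with limma-voom.

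Of the complex IV genes, mt-Co1 ran from 14157 to 18250 CPM (median 16607) on the control and from 10023 to 17866 CPM (median 13153) on the ketogenic diet. Ketogenic 5 and ketogenic 6 lay within the control range and the other 4 below it. The log2 fold change was -0.25 ± 0.16 (edgeR adjusted p = 0.491). mt-Co2 ran from 111 to 234 CPM against 83.6 to 194 CPM, and mt-Co3, a further core subunit, from 73.2 to 146 CPM against 54.2 to 118 CPM. Both overlapped, with 1 and 2 ketogenic libraries below all controls, and stood at -0.07 ± 0.22 and -0.33 ± 0.20 (edgeR adjusted p = 0.922 and 0.470). For ATP synthase, mt-Atp6 ran from 79.9 to 214 CPM on the control and from 57.0 to 148 CPM on the ketogenic diet, with 2 ketogenic libraries below all controls. mt-Atp6 was at -0.42 ± 0.26 and mt-Atp8 at -0.10 ± 0.36 in log2 fold change (edgeR adjusted p = 0.476 and 0.937). mt-Atp8 rested on 14 to 60 counts in a library, so that a change could have gone undetected at this depth.

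**Figure D2:**
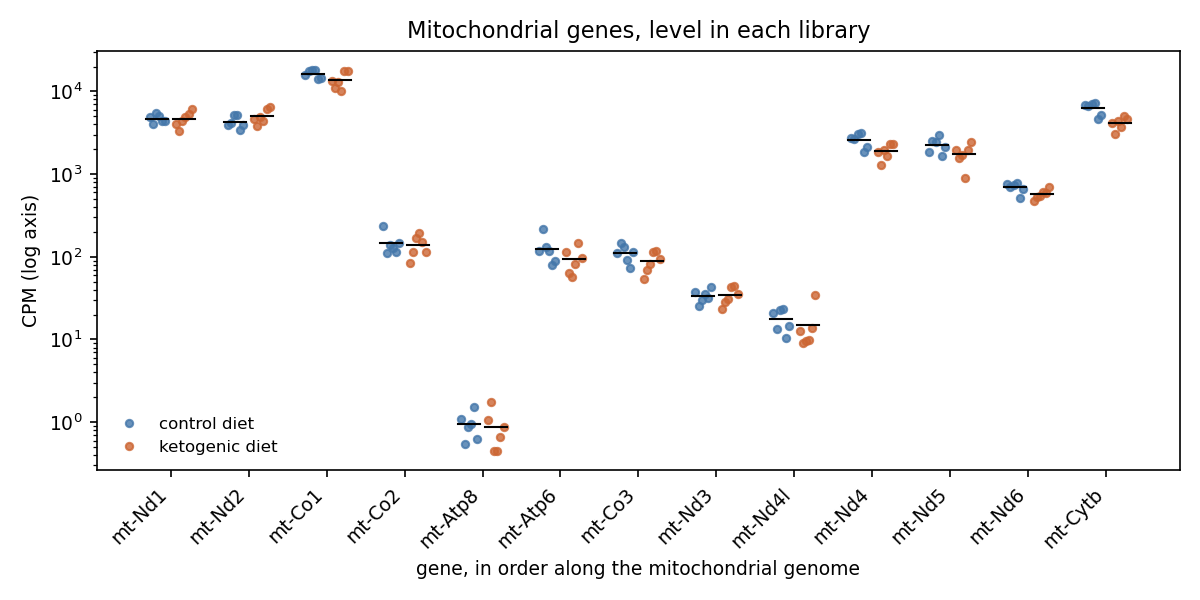
CPM of the 13 genes on a log axis, in genome order, with a point for each of the 6 libraries per diet and a line at the mean. The diets overlap in every gene, and mt-Cytb has 5 of 6 ketogenic libraries below all control libraries.

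Because the mitochondrial total varied among the libraries of each diet, the genes were also compared as shares of the mitochondrial counts. The same two-sided exact permutation test was made for the 13 genes and for the sums of complex I, complex IV and ATP synthase, and p-values were adjusted over these 16. At an adjusted p under 0.05 there were 4 of 16 (25%), and in 3 (18.8%) the ranges of the diets did not overlap. The sums hold genes that were also tested singly, mt-Nd2 among them, so that these calls are not separate. Shares add up to 100%, so that a higher share of one gene lowers those of others.

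The share of mt-Nd2 ran from 10.6% to 12.2% (median 11.3%) on the control and from 15.2% to 16.5% (median 15.7%) on the ketogenic diet. Every ketogenic library lay above every control library, by at least the distance from 12.2% to 15.2%. The difference was 4.28 percentage points (exact p = 0.00216, the smallest that such splits can give, adjusted p = 0.0115). With 1 library left out it ran from 4.12 to 4.44 points. The call was kept in 12 of 12 cases, which was fixed beforehand. Leaving out a library cannot make separate ranges overlap. Among the ketogenic libraries mt-Nd2 had the smallest relative spread of the genes over 500 CPM.

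The share of mt-Cytb ran from 15.2% to 18.3% (median 16.9%) on the control and from 11.4% to 14.1% (median 13.3%) on the ketogenic diet. Here every ketogenic library lay below every control library. The difference was -3.63 points (exact p = 0.00216, adjusted p = 0.0115), and from -3.93 to -3.30 points with 1 library left out. That it was called in 12 of 12 cases was again fixed by the separate ranges. mt-Nd2 and mt-Cytb together held 28.1 ± 1.18% on the control and 28.7 ± 1.21% on the ketogenic diet, a sum chosen after the values were seen and given with no test.

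The ratio of mt-Nd2 to mt-Cytb counts, also chosen after the values were seen, does not depend on the other genes or on library size. On the control diet it was 0.582, 0.636, 0.730, 0.714, 0.719 and 0.745 in control 1 to 6. On the ketogenic diet it was 1.12, 1.24, 1.11, 1.19, 1.22 and 1.39 in ketogenic 1 to 6. All control libraries had fewer mt-Nd2 than mt-Cytb counts and all ketogenic libraries more, with ketogenic 4 inside the range of its group.

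mt-Nd4 held 6.83 ± 0.564% of the mitochondrial counts on the control and 5.84 ± 0.395% on the ketogenic diet (exact p = 0.0108, adjusted p = 0.0433). The ranges overlapped at 5.93% to 6.29%, and the call was kept in 1 of 12 cases with 1 library left out (adjusted p from 0.00866 to 0.0866). It was kept without control 5. mt-Nd1 held 12.6 ± 1.26% against 14.5 ± 1.94% (exact p = 0.0411, adjusted p = 0.132), with ketogenic 4 at 18.3% and the other ketogenic libraries at 13.2% to 14.8%. The call of mt-Nd1 was gained without control 5 (adjusted p = 0.0346).

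Of the other large genes, mt-Co1 held 43.5 ± 1.57% against 42.5 ± 2.52% (exact p = 0.459, adjusted p = 0.736). mt-Nd5 held 5.97 ± 0.749% against 5.43 ± 1.13% (exact p = 0.377). Without ketogenic 4 the differences shrank from -1.05 to -0.0945 points for mt-Co1 and from -0.546 to -0.144 points for mt-Nd5. mt-Nd6 held 1.84 ± 0.130% against 1.81 ± 0.332% (exact p = 0.868). The 6 low genes had exact p-values from 0.327 to 0.874.

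By complex, the share of the 7 genes of complex I together rose from 38.8 ± 1.37% to 43.4 ± 1.94% of the mitochondrial counts (exact p = 0.00216, adjusted p = 0.0115). The control libraries reached 40.2% and the ketogenic ones started at 41.4%. This is a change of share, and the summed CPM of these genes was not tested. In edgeR the log2 fold changes were positive for mt-Nd2 and mt-Nd3 and negative for mt-Nd1, mt-Nd4l, mt-Nd4, mt-Nd5 and mt-Nd6. None of these 7 was called. Without mt-Nd2, the other 6 complex I genes held 27.3 ± 0.842% against 27.7 ± 1.61%, given with no test, and their ranges overlapped. Complex IV held 44.2 ± 1.56% against 43.2 ± 2.31% (exact p = 0.435) and ATP synthase 0.333 ± 0.111% against 0.292 ± 0.0777% (exact p = 0.550).

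**Figure D3:**
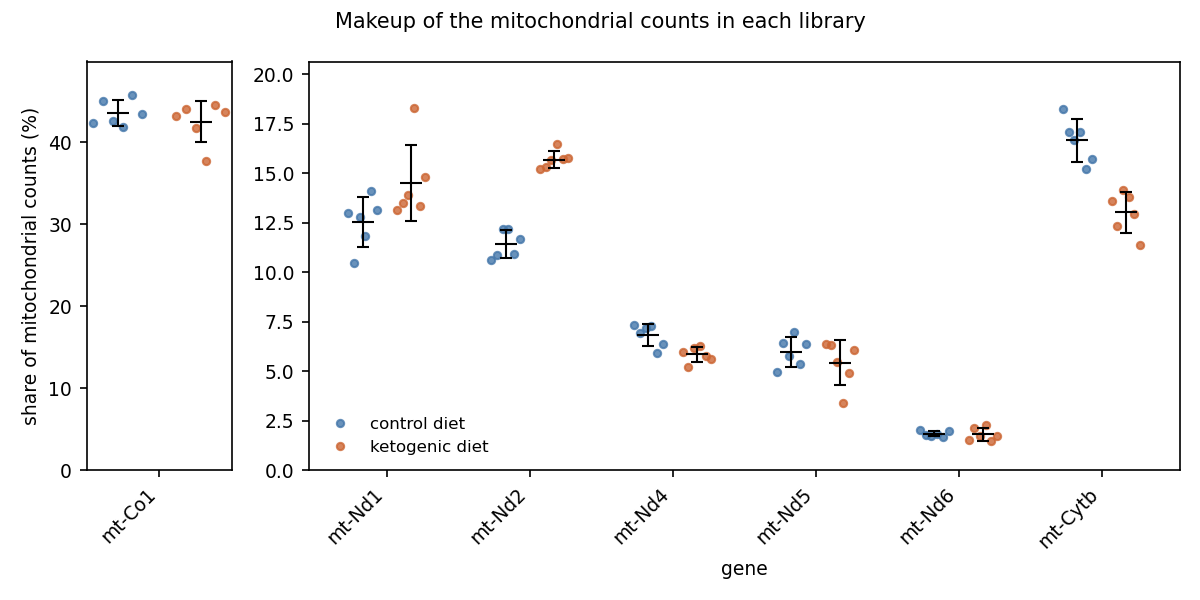
Share of the mitochondrial counts (percent) of the 7 genes over 500 CPM, with a point per library and black bars for mean ± SD (n = 6 per diet); mt-Co1 has its own axis. The 6 ketogenic libraries lie above all controls for mt-Nd2 (15.2% to 16.5% against 10.6% to 12.2%) and below them for mt-Cytb.

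Within a diet the members did not vary in parallel. Ketogenic 4 was low in the long genes and high in the short ones among the 7 genes over 500 CPM. It lay 1.07 below the mean of the other ketogenic libraries on the log2 scale in mt-Nd5 (1824 bases) and 0.51 below it in mt-Co1 (1545 bases). In mt-Nd6 (519 bases) it lay 0.13 above and in mt-Nd1 (957 bases) 0.10 above. Spearman's rho between this deviation and gene length was -0.86 over these 7 genes and -0.21 over all 13, a description of 1 library whose points share its depth. Over the 7 genes, control 1 had -0.61 and the other 10 libraries ran from -0.43 to 0.86. Over all 13, control 1 was lowest at -0.72. mt-Nd2 (1038 bases) and mt-Cytb (1144 bases) are close in length, and ketogenic 4 lay below the other ketogenic libraries by 0.22 and 0.20 in them.

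**Figure D4:**
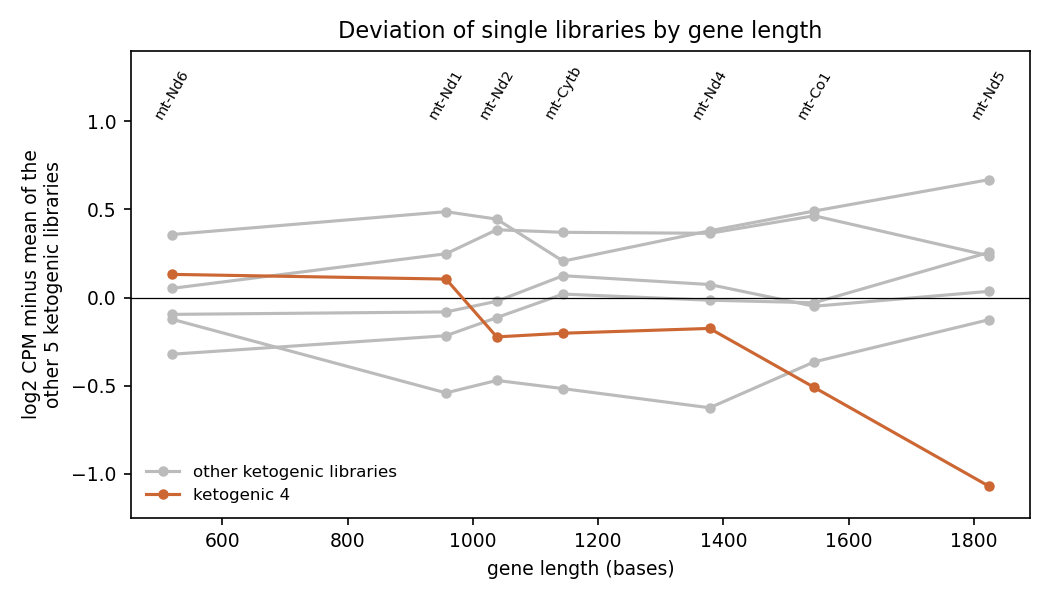
Log2 CPM of each ketogenic library minus the mean of the other 5, for the 7 genes over 500 CPM, against gene length in bases. Ketogenic 4 goes from 0.13 in mt-Nd6 to -1.07 in mt-Nd5, while it lies at -0.22 and -0.20 in the similarly long mt-Nd2 and mt-Cytb.

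The nuclear genes that partner with the mitochondrial genome were read from the same edgeR fit. Of 77 nuclear subunits of the respiratory chain and ATP synthase tested, 0 rose and 0 fell, where 2.34% of all genes rose and 1.44% fell. An unadjusted p under 0.05 was found for 4 of the 77, beside 16.7% of all genes. Without ketogenic 4 these were 13 of the 77, beside 20.5% of all genes, and 1 subunit fell at the adjusted threshold. DESeq2 called 1 subunit of complex I and 0 of the other complexes.

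The direction of these nuclear subunits rested on ketogenic 4. With all libraries their median log2 fold change was 0.12 and 66 of 77 were above 0, and without ketogenic 4 the median was -0.09 and 21 of 77 were above 0. Leaving out any other library kept the median between 0.09 and 0.19. By complex, the median went from 0.14 to -0.07 without ketogenic 4 for complex I (37 genes), from 0.13 to -0.04 for complex III (9), from 0.03 to -0.16 for complex IV (12) and from 0.09 to -0.13 for ATP synthase (15). For complex II, which has no mitochondrial gene (4 genes), it went from 0.11 to 0.03. Of the 9 nuclear subunits of complex III, 9 were above 0 with all libraries and 4 without ketogenic 4, and 0 passed the threshold in either fit. mt-Cytb stood at -0.59 and -0.56 in the same fits. The difference between nuclear and mitochondrial subunits was not tested.

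Of 107 nuclear genes for replication, transcription, processing, translation and biogenesis, 5 rose and 0 fell, where 2.34% of all genes rose and 1.44% fell. An unadjusted p under 0.05 in edgeR was found for 35 of the 107, beside 16.7% of all genes. Their median log2 fold change was 0.18, and 0.14 without ketogenic 4, with 80 of 107 above 0 in both fits. Without ketogenic 4 all the nuclear lists together held 10 genes that rose and 2 that fell, out of 761 calls over all genes against 529 with it. Those that fell, named here after their values were seen, were Ndufa6, a subunit of complex I, at -0.39 and Esrra, a nuclear receptor of mitochondrial biogenesis, at -0.44. With DESeq2 the lists held 15 that rose and 1 that fell, Esrra, out of 1028 calls. The 5 genes that rose did different work. Mterf2, of a family of mitochondrial DNA-binding proteins, ran from 0.571 to 0.975 CPM on the control and from 1.45 to 3.77 CPM on the ketogenic diet. The ranges did not overlap, and its log2 fold change was 1.56 ± 0.25 (edgeR adjusted p = 0.00257) at a low level.

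Lonp1, a protease of the mitochondrial matrix, ran from 156 to 173 CPM against 206 to 233 CPM, a log2 fold change of 0.40 ± 0.08 (edgeR adjusted p = 0.0108). Hsd17b10, an enzyme of isoleucine breakdown that is also a subunit of mitochondrial RNase P, which cuts the tRNAs from the precursor, rose by 0.84 ± 0.17 (edgeR adjusted p = 0.0134). Its ranges overlapped through ketogenic 1 at 77.5 CPM. Gfm1, an elongation factor of mitochondrial translation, ran from 79.7 to 102 CPM on the control and from 113 to 150 CPM on the ketogenic diet, without overlap, and rose by 0.44 ± 0.10 (edgeR adjusted p = 0.0198). Supv3l1, an RNA helicase of mitochondrial RNA decay, ran from 15.6 to 18.5 CPM against 18.7 to 23.7 CPM, again without overlap, and rose by 0.38 ± 0.09 (edgeR adjusted p = 0.0292). With 1 library left out, the call of Supv3l1 held in 6 of 12 fits and was lost for control 2, control 3, control 6, ketogenic 3, ketogenic 5 and ketogenic 6 (adjusted p from 0.0230 to 0.0762 in all). The other 4 calls were kept in 12 of 12 such fits. With no filter on low counts the calls of Lonp1 (adjusted p = 0.0783), Gfm1 (0.0575) and Supv3l1 (0.104) were lost in edgeR, and those of Mterf2 and Hsd17b10 were kept. At an adjusted p under 0.01 Mterf2 alone was called.

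The core machinery showed no call. Polrmt, the mitochondrial RNA polymerase, was at -0.01 ± 0.10 and its partner Tfb2m at -0.08 ± 0.10 (edgeR adjusted p = 0.981 and 0.775). Tfam, which packs mitochondrial DNA and opens its promoters, was at 0.14 ± 0.08 (edgeR adjusted p = 0.402). Lrpprc and Slirp, which together protect mitochondrial mRNAs, were at 0.11 ± 0.09 and 0.24 ± 0.34 (edgeR adjusted p = 0.661 and 0.810). Slirp had 2.88 CPM in ketogenic 4 and 0.670 to 1.05 CPM in the other ketogenic libraries, beside 0.740 to 1.44 CPM on the control diet. The decay nuclease Pnpt1 was at 0.19 ± 0.10, the replicative helicase Twnk at 0.21 ± 0.09 and the DNA polymerase Polg at 0.20 ± 0.17 (edgeR adjusted p = 0.391, 0.227 and 0.633). Polg had 31.7 CPM in ketogenic 4 and 51.7 to 73.0 CPM in the other ketogenic libraries, beside 47.0 to 58.2 CPM on the control diet. Ppargc1a, a coactivator of mitochondrial biogenesis, was at -0.24 ± 0.22 (edgeR adjusted p = 0.662).

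**Figure D5:**
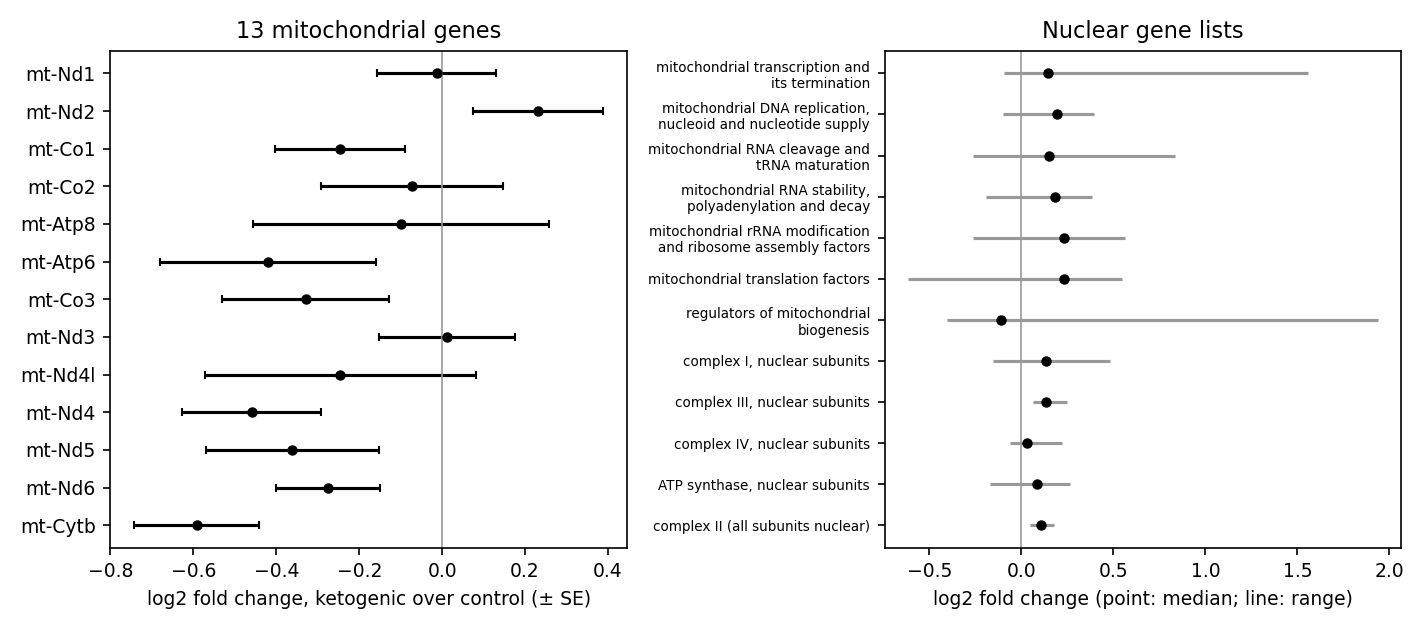
Log2 fold change, ketogenic over control, for the 13 mitochondrial genes with bars of ± SE (left) and for 12 lists of nuclear genes with a point at the median and a line from the lowest to the highest gene (right). mt-Cytb lies lowest at -0.59 and mt-Nd2 highest at 0.23, while the medians of the nuclear lists run from -0.11 to 0.23; without ketogenic 4, those of complexes I, III and IV and ATP synthase lie below 0.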

How the data were processed

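The deposited counts are whole numbers of reads per gene in each library, not normalized. The submitters' processing notes name HISAT2 2.1.0, fastp 0.19.3, Cufflinks and StringTie 1.3.4d with no role; no source used here gives the counter, its strand setting, its treatment of reads that fit several places or the build. Members and gene lists were chosen with earlier results of these data known. Genes were tested between diets in edgeR 4.0.16 under R 4.3.3 (filterByExpr, TMM, robust quasi-likelihood fit, diet as the only term), with Benjamini-Hochberg adjustment over 13995 genes, and the steps were tested on simulated data. Shares were tested by exact permutation, two-sided, over all splits into 6 and 6 libraries. P-values set the difference between the diets against the spread between these libraries, whose relation to single animals the labels do not give. Depth was 30176579 to 33538911 counts per library, and libraries of a diet differed by more than sampling noise (chi-square per degree of freedom at least 44.1). Named outside the 13 genes are 9 genes fixed by name and the called genes of each list. Copies were searched with BLAST+ 2.17.0 among GENCODE M21 transcripts, and exact matches of at least 100 bases were counted; that window was chosen after seeing the data, as were the shares without mt-Co2 to mt-Nd4, the run of 7 genes in the copy on chromosome 1, and without these and mt-Co1, whose end lies in it. Alternatives were DESeq2 1.42.0, limma-voom 3.58.1, RLE factors, library size only, other filters, library sizes without the mitochondrial genes, another denominator, an adjusted p under 0.01, the replicate number as a block, and each library left out.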

Additional observations from a re-analysis of the deposited data

Results flagged for a closer look

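Of 64 sets of 6 libraries examined, 7 held a library far from the other 5 by Dixon's test, which chance gives in about 1 of 20 sets. The sets are not separate, since they hold the same genes as CPM and as shares, and sums of them. Flags for mt-Nd4l in ketogenic 6 and mt-Atp6 in control 2 thus recur, so that the 2 rates cannot be set against each other. Control 1 had 234 CPM of mt-Co2, with the other controls at 111 to 147 CPM. Ketogenic 6 had 34.3 CPM of mt-Nd4l, with the others at 9.01 to 13.6 CPM, and 0.0840% of the mitochondrial counts in that gene, with the others at 0.0310% to 0.0415%. Ketogenic 4 had 18.3% of its mitochondrial counts in mt-Nd1, with the others at 13.2% to 14.8%. Ketogenic 2 had 0.00709% in mt-Atp8, with the others at 0.00145% to 0.00346%. Control 2 had 0.555% in mt-Atp6, with the others at 0.258% to 0.316%, and 0.556% in both ATP synthase genes, with the others at 0.263% to 0.319%. All but the mt-Nd1 value are in genes that lie within the span of the nuclear copy on chromosome 1, whose part was not tested.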

How the results depend on the processing

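The shares of mt-Nd2, mt-Cytb and complex I kept their direction and call with log2 shares and with each library left out. This was fixed beforehand, since neither step can make separate ranges overlap. Those of mt-Nd2 and mt-Cytb also kept direction and call without mt-Co2 to mt-Nd4 (4.47 and -4.10 points). So they did without mt-Co1 to mt-Nd4 (7.56 and -8.58 points of the smaller total). The first of these steps could move the shares little. On the control diet mt-Nd4 held 6.83% of the mitochondrial counts and the other genes left out in that step 1.16%. Both steps kept the part of mt-Nd2 that lies in exact matches. Same-numbered libraries did not vary together in every pair (correlations -0.29 to 0.34). Control 2 and control 6 were closest to the ketogenic library of their own number (0.34 and 0.20), and the other controls were not. These values cannot settle whether the numbers pair the animals. With the replicate number as a block, the differences of mt-Nd2 (4.28 points), mt-Nd4 (-0.987), mt-Cytb (-3.63) and complex I (4.68) had an adjusted p of 0.125, from an exact sign-flip p of 0.0313, the smallest that 6 pairs can give. The block gave 268 calls over all genes against 529, DESeq2 1028 and an adjusted p under 0.01 197. Of the mitochondrial genes 0 were called with the block, library size only, no filter or an adjusted p under 0.01. The nuclear lists held 9 calls with library size only, 2 with no filter, 1 with the block (Mterf2), 16 with DESeq2 and 1 at 0.01, against 5. The log2 fold change turned to 0.055 for mt-Nd1 with library size only, and to -0.0036 and -0.0052 for mt-Nd3 with the block and with limma-voom. With 1 library left out, calls ran from 319 (without control 3) to 761 (without ketogenic 4) over all genes, from 0 to 1 for the mitochondrial genes and from 4 to 12 for the nuclear lists. The log2 fold changes ran from -0.10 to 0.065 (mt-Nd1), -0.20 to 0.11 (mt-Co2), -0.42 to 0.10 (mt-Atp8), -0.075 to 0.11 (mt-Nd3), -0.68 (without ketogenic 6) to -0.14 (mt-Nd4l), -0.60 to -0.20 (without control 2; mt-Atp6) and -0.48 to -0.23 (without ketogenic 4; mt-Nd5). The shares ran from 1.19 to 2.26 points (mt-Nd1), -1.17 to -0.860 (mt-Nd4), -0.00254 to 0.102 (mt-Co2), -0.000493 to 0.000817 (mt-Atp8), -0.0586 to 0.00325 (mt-Atp6), -0.0469 to 0.00406 (mt-Co3), -0.0101 to 0.000506 (mt-Nd4l), -0.124 to 0.0410 (mt-Nd6), -0.0584 to 0.00336 (ATP synthase), -1.46 to -0.0945 (mt-Co1), -1.42 to -0.144 (complex IV), -0.748 to -0.144 (mt-Nd5) and 0.00570 to 0.0237 (mt-Nd3), the smallest of these last 4 without ketogenic 4. The share of all counts on the 13 genes ran from -0.530 to -0.210 points. The causes were not tested. Planned values for rRNA and tRNA genes were not run, since these genes were not analysed here.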
